A study of Mus musculus with 10 samples.

Results

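The genes examined here encode the nuclear-encoded subunits of the mitochondrial respiratory chain and ATP synthase in sorted cells of the embryonic mouse cortex. They were chosen by symbol: the Nduf genes of the a, b, c, s and v series, Sdha to Sdhd, genes starting with Uqcr, the Cox4 to Cox8 genes followed by a, b or c, and genes starting with Atp5. Of 81 symbols matched after 2 pseudogenes were left out, 74 had at least 100 counts over the 10 libraries, of 27178 gene IDs in all. Complex I had 36 of them, complex II 3, complex III 7, complex IV 11 and complex V 17. No measured change was used in the choice, and all 74 passed the filter on low counts and were tested.

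At E17.5 the libraries came from Nestin-Cre, Ccn1fl/fl conditional knockout cortex (CcKO) and wild-type cortex (WT), both on C57BL/6. Embryos of both genotypes had received PB-Ctrl, a PiggyBac plasmid without an insert gene named in its label, by electroporation at E14.5. The E15.5 libraries were from wild-type ICR embryos given PB-CCN1, PB-GPC4 or PB-Ctrl at E13.5. Every group received the transposase plasmid at 3 µg/µl and its PiggyBac plasmid at 1.5 µg/µl, GFP-positive cells were sorted, and each group has 2 mRNA-seq libraries. The Nestin-Cre transgene is known to act in neural progenitors, whose descendants inherit the recombined allele. The wild-type label does not say whether Cre or the floxed allele was present in WT, or whether the replicates are separate animals, and p-values measure the spread between these libraries.

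Complex I takes electrons from NADH and complex II from succinate. Both pass them through ubiquinone to complex III, then through cytochrome c to complex IV, which reduces oxygen. Complexes I, III and IV pump protons, and complex V, the ATP synthase, uses the resulting gradient. A few core subunits are encoded by mitochondrial DNA, and the others by nuclear genes transcribed in nearly every cell. Cortical progenitors are known to rely much on glycolysis, and oxidative phosphorylation is known to gain weight as neurons form.

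Library totals ran from 22505945 to 30825498 counts. The targeted genes went with their labels: Ccn1 had 0.669 and 3.11 CPM (counts scaled to library size, with the trimmed mean of M values, TMM) in CcKO, against 17.7 and 12.1 in WT, and 7100 and 7000 in PB-CCN1, against 50.5 and 57.4 in PB-Ctrl. Gpc4 had 5120 and 5000 CPM in PB-GPC4, against 70.6 and 66.1 in PB-Ctrl. The WT libraries stood apart in 1 respect that touches every result at E17.5, since their levels depended on gene length as described below.

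The promoters show how these genes are built and are printed for 4 subunits on which the results turn. RefSeq promoter sequences (GRCm38.p6, from 250 bases before to 50 after the transcription start) were at hand for 63 of the 74 genes, as 68 promoters. Letter patterns of 5 factors were searched on both strands. The NRF1 pattern, GCGC, any base and then TGCGC, was in 25% of the 68 promoters, against 9.08% of the 14697 promoters of tested genes. The YY1 pattern AAGATGGCG was in 10.3%, against 2.62%, and the ETS pattern CCGGAAG, read by factors such as GABP, in 22.1%, against 15.7%. The Sp1 pattern GGGCGG was in 38.2%, against 60.9%, and the TATAAA pattern in 10.3%, against 7.42%. Counted by gene, the shares were 25.4% against 10.7% for NRF1, 11.1% against 3.2% for YY1 and 23.8% against 18.3% for ETS. For Sp1 they were 39.7% against 67.7%, and for TATAAA 9.52% against 8.92%. In the respiratory chain promoters 1 ETS match overlapped 1 Sp1 match, and no other matches of different patterns overlapped. These shares describe letters in a window and do not show binding.

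In the sequences below capitals mark matches to the NRF1 and ETS patterns, written 5′ to 3′ on the gene's own strand, and no YY1 match fell in these 4. Cox6a1 has 2 NRF1 matches, starting 162 and 117 bases before the start site, and an ETS match starting 16 bases before it. Cox6b1 has 1 ETS match starting 28 bases before the start site, and Ndufs3 has 2, starting 27 bases before it and at its second base. Uqcr10, the gene with the largest called fall at E17.5, has none of the 5 patterns in this window.
Cox6a1, chr5:115348909-115349208, minus strand: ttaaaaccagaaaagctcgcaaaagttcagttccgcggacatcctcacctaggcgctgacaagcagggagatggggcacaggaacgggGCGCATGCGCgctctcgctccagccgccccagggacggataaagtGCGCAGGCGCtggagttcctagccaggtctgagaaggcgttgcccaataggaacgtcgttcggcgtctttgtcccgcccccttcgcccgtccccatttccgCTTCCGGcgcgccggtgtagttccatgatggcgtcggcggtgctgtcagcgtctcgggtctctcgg
Cox6b1, chr7:30626065-30626364, minus strand: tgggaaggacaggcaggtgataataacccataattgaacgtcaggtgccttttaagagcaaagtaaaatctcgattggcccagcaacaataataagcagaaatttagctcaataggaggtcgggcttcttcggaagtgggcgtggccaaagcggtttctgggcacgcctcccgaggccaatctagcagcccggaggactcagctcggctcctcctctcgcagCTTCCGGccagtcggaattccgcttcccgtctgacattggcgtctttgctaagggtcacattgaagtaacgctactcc
Ndufs3, chr2:90904672-90904971, minus strand: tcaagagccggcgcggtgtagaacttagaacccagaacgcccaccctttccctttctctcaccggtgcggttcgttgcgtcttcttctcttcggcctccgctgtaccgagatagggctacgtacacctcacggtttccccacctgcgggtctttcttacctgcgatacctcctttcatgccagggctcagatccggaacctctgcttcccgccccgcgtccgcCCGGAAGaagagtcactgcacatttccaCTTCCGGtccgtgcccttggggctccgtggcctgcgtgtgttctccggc
Uqcr10, chr11:4704295-4704594, minus strand: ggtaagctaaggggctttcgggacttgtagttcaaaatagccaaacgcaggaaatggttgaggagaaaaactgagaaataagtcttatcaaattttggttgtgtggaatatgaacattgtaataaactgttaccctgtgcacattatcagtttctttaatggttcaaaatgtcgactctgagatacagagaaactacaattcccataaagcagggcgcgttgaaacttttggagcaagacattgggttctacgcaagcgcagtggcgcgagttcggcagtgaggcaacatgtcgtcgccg

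All 5 complexes were abundantly transcribed. On the authors' FPKM scale, which divides counts by gene length and library total, the median respiratory chain gene had a mean level of 97.3 FPKM over the 10 libraries, against 7.73 FPKM for all 15371 genes tested. The highest was Atp5b, the catalytic beta subunit of ATP synthase, at 454 FPKM, with a range of 428 to 492 over the libraries. Atp5a1, the alpha subunit that alternates with it in the F1 head, had 310 FPKM. The medians by complex were 72.1 FPKM in complex I, 77.7 in complex II, 98.3 in complex III, 194 in complex IV and 177 in complex V.

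Within complex I the levels ran from 252 FPKM for Ndufa4 to 5.6 for Ndufa8, an accessory subunit. Ndufa4 is matched here by its symbol, but its protein is now assigned to complex IV. Its level was near those of Cox7c of complex IV (236 FPKM), Uqcrh of complex III (241) and Atp5o of complex V (254). The level thus does not tell the complexes apart. In complex II Sdhb, the iron-sulfur subunit, had 107 FPKM, Sdhc, a membrane anchor, 77.7, and Sdha, the flavoprotein, 47.9. In complex III Uqcrh, the hinge protein next to cytochrome c1, was highest at 241 FPKM and Uqcrc2, a core protein, lowest at 71.2. The ranges of Sdhb (98 to 124 FPKM) and Sdhc (67.6 to 91.7) over the 10 libraries did not overlap, and neither did those of Sdhc and Sdha (43.2 to 52.7).

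Tissue isoforms of complex IV separated most. Cox6a1, the isoform made in most tissues, had 315 FPKM, and Cox6a2, its heart and skeletal muscle paralogue, had 0 counts in every library. Cox6b1 had 291 FPKM, and Cox6b2, known from testis, 1.53. Cox8a had 206 FPKM, Cox8b, another muscle isoform, 17 counts in all, and Cox8c, known from testis, 0 counts. Cox7a1, the muscle isoform, had 1.31 FPKM, and Cox7a2l, which joins complexes III and IV into supercomplexes, 129 FPKM. Cox6a2, Cox6b2, Cox8b and Cox8c thus lay far below Cox6a1, Cox6b1 and Cox8a, whereas Cox7a1, with 128 counts in all, was not below Cox7a2, with 98.

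The 7 symbols below the 100 counts over all libraries were Cox6a2, Cox8c and Uqcr11 with 0 counts, Cox7b2 with 5, Cox8b with 17, Sdhd with 24 and Cox7a2 with 98. Cox7a2 lay just below the minimum and Cox7a1, with 128 counts, just above it. Sdhd, Uqcr11 and Cox7a2 are known as subunits made in most tissues, so their counts say little about their transcripts here. No annotated transcript of another gene was near-identical to theirs, and the cause of the low counts was not tested. The low counts of the tissue isoforms above carry the same limit.

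**Figure D1:**
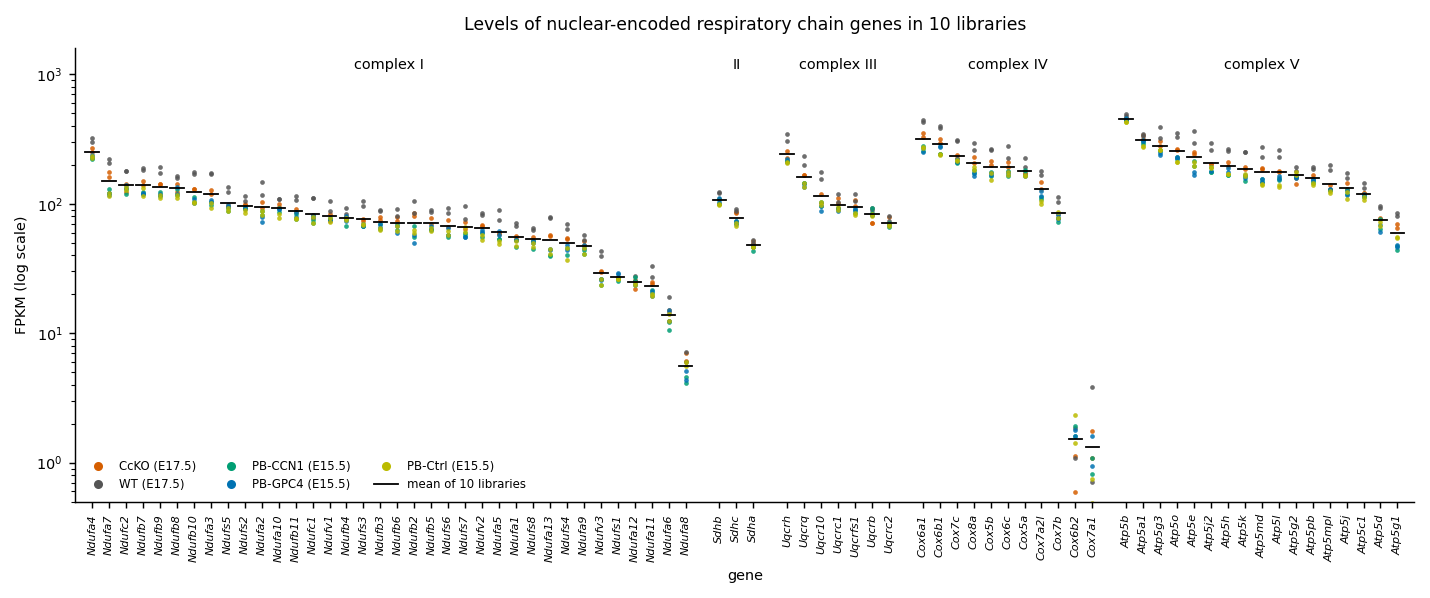
Level of each of the 74 genes (FPKM, log scale) by complex. Points are the 10 libraries coloured by group and bars the mean of the 10. Atp5b is highest at 454 FPKM, the WT points lie above the other groups for most short genes, and Cox6b2 and Cox7a1 lie near 1 FPKM.

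The loss of Ccn1 was compared first. In the counts as deposited, 54 of the 74 genes were lower in CcKO than in WT, none was higher and 20 were not called (edgeR quasi-likelihood F-test, Benjamini-Hochberg adjusted p under 0.05 over all genes tested). That is 73.0%, against 12.9% of all genes tested called lower and 17.4% called higher. The median log2 fold change of the 74 genes was -0.30, a fold of 0.811, against 0.02 for all genes tested. Fold changes ran from -0.72 to 0.05, and 72 of 74 were below 0, against 7317 of 15371 for all genes tested. In 60 genes both CcKO libraries lay below both WT libraries, which 28.6% of all genes tested did, and in 1 gene both lay above, against 32.7% of all genes. In bulk samples fewer cells of a type and less RNA per cell cannot be told apart. Summed over the 74 genes, the level was 7750 and 8220 CPM in CcKO, against 9110 and 9720 in WT.

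Most falls were of similar size in complexes I, III, IV and V. In complex I 25 of 36 genes fell and the median over all 36 was -0.29 on the log2 scale. In complex II 1 of 3 fell (median -0.04), in complex III 4 of 7 (-0.35), in complex IV 9 of 11 (-0.34) and in complex V 15 of 17 (-0.29). The largest called fall was that of Uqcr10, a small accessory subunit of complex III. It had 44.8 and 52.8 CPM in CcKO, against 67.8 and 77 in WT, and its log2 fold change was -0.57 with an SE of 0.087 (edgeR adjusted p = 9.75e-06). The groups did not overlap, and the WT libraries were the highest of all 10.

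The genes named next have the smallest adjusted p within their complex. In complex I these were Ndufa13, Ndufs3, Ndufc2 and Ndufb10. Ndufa13, an accessory subunit also known as GRIM-19, had 69.6 and 71.7 CPM in CcKO, against 98.1 and 95.2 in WT (log2 fold change -0.45, SE 0.068, edgeR adjusted p = 7.36e-06). Ndufs3, a core subunit of the arm that reaches into the matrix, had 71.1 and 69.6 CPM, against 90.2 and 97.9 in WT (-0.42, SE 0.067). The membrane-arm subunits Ndufc2 and Ndufb10 changed by -0.42 and -0.41 on the log2 scale. In none of the 4 did the groups overlap. Ndufs3 has 1 near-identical annotated pseudogene.

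In complex III Uqcrh, Uqcrq and Uqcrb, a ubiquinone-binding subunit, changed by -0.42, -0.36 and -0.35 on the log2 scale. Uqcrh had 121 and 140 CPM in CcKO, against 164 and 185 in WT. The other three, the core proteins Uqcrc1 and Uqcrc2 and the Rieske iron-sulfur protein Uqcrfs1, had values of -0.07, -0.06 and -0.13 and were not called. The called genes of complex III are 441 to 546 bases long and the others 1313 to 1882. Uqcrb has 3 near-identical annotated pseudogenes.

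In complex IV Cox7c, Cox6b1, Cox7b and Cox6a1 had the smallest adjusted p. Cox6b1, which joins the monomers of the enzyme from the intermembrane space, had 148 and 160 CPM in CcKO, against 193 and 198 in WT (log2 fold change -0.34, SE 0.056, edgeR adjusted p = 2.27e-05). Cox7c had 106 and 103 CPM in CcKO, against 135 and 138 in WT (-0.38, SE 0.059), and has 1 near-identical annotated gene, not labelled a pseudogene. Cox7b and Cox6a1 changed by -0.41 and -0.34. Cox6b2 and Cox7a1 had the most negative and next most negative values, -0.72 and -0.67, with standard errors of 0.58 and 0.74 and adjusted p of 0.387 and 0.552, and neither had more than 1.39 CPM in a library.

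In complex V Atp5j2 (subunit f of the membrane part) had 95.6 and 96.7 CPM in CcKO, against 124 and 138 in WT, and its log2 fold change was -0.44 with an SE of 0.064 (edgeR adjusted p = 4.27e-06). Atp5o, the oligomycin sensitivity-conferring protein of the stalk, had 200 and 206 CPM, against 251 and 269 in WT (-0.36, SE 0.053). It shares 48.568% of its exonic bases with other annotation entries, 1 on the same strand under its own symbol and D430001F17Rik on the other strand. Atp5o also has 1 near-identical annotated pseudogene. Atp5l (subunit g) and Atp5mpl, a small proteolipid, changed by -0.44 and -0.49. Atp5l has 9 near-identical annotated genes, 8 of them pseudogenes, so its counts are uncertain. The catalytic pair did not follow: Atp5b had 823 and 876 CPM, against 891 and 912 in WT (-0.08, adjusted p = 0.146), and Atp5a1 771 and 837, against 798 and 835 (-0.02, adjusted p = 0.768).

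In complex II Sdhb had 106 and 117 CPM in CcKO, against 130 and 131 in WT (log2 fold change -0.22, SE 0.063, edgeR adjusted p = 0.00778). Sdhc had 100 and 103 CPM, against 102 and 107 in WT, and Sdha 139 and 149, against 140 and 149. For Sdha the log2 fold change was -0.00 with an SE of 0.059, and the adjusted p was 0.976. Sdha with 2859 bases and Ndufs1, the largest core subunit of complex I, with 2927 bases are the longest of the 74 genes, and for Ndufs1 the log2 value was 0.05 (SE 0.064, adjusted p = 0.625).

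These differences followed gene length, and so did those of the whole transcriptome. The respiratory chain genes are short, with a median of 644 bases and a range of 292 to 2927, against a median of 2784 for all genes tested. Across all genes, Spearman's correlation between length and a library's deviation from the 10-library mean was -0.357 and -0.409 in the WT libraries. It was 0.00604 and -0.0511 in CcKO, 0.198 and 0.235 in PB-CCN1, 0.207 and 0.2 in PB-GPC4, and 0.261 and 0.247 in PB-Ctrl. In the shortest decile of genes, up to 994 bases, the median deviation was 0.00 and 0.01 in CcKO, against 0.21 and 0.29 in WT, on the log2 scale. That decile holds 51 of the 74 genes. Both WT libraries thus differed from the other 8 in the direction that raises short genes. In the comparison of CcKO with WT the trend therefore coincided with genotype. Whether it came from genotype or from the preparation of the libraries was not tested.

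**Figure D2:**
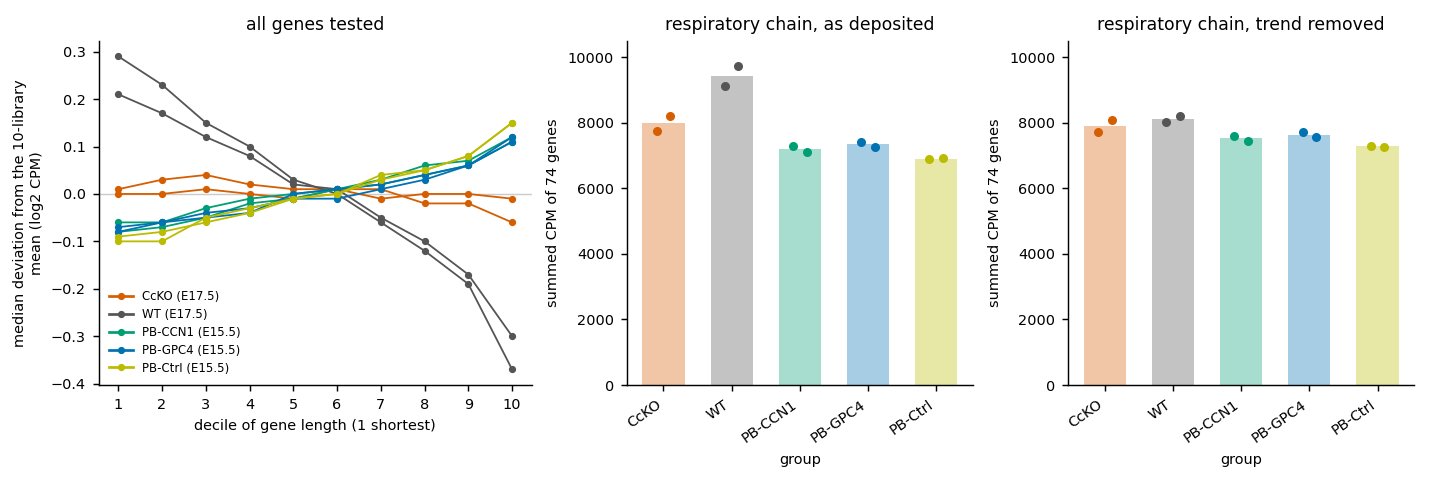
Left, median deviation of each library from the 10-library mean (log2 CPM) by decile of gene length. Middle and right, summed CPM of the 74 genes in each library (points) and group mean (bars), before and after the length trend was removed. The WT lines start at 0.21 and 0.29 and end lowest, and the WT sums of 9110 and 9720 CPM become 8030 and 8220 after removal.

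Median log2 fold changes between CcKO and WT moved from -0.28 in the shortest decile of all genes to 0.33 in the longest. The rank correlation between length and fold change was 0.571 over the 74 genes and 0.434 over all 15371, as a description, since genes of 1 library are not independent. Among genes under 1000 bases, 43 of 52 respiratory chain genes were lower in CcKO (82.7%, median log2 fold change -0.34), against 29.7% of the 1555 tested genes of that length (median -0.28). Among longer genes 11 of 22 were lower (median -0.16), against 11% of 13816 (median 0.04). The sets were not matched for length within these classes. Median lengths were 539 bases for the 52 genes, against 690 for all short genes, and 1553 for the 22, against 3029 for all longer ones. The respiratory chain genes are also more abundant than most genes, and the part of this in the share called was not tested.

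The trend was then removed by fitting, in each library, a smooth curve of the deviation over log2 length and passing it to the same test as an offset. Because the trend coincided with genotype, this offset also takes out any genotype effect that varies with gene length. The values after removal therefore describe differences beyond the length trend, not the whole difference between CcKO and WT. After removal 5 of the 74 genes were lower in CcKO, 0 were higher and 69 were not called. The count depended on the length used, with 4 genes lower with the median annotated transcript length and 30 with the shortest, both added after seeing the data. Leaving out 1 library gave 1 (without WT replicate 2) to 8 (without CcKO replicate 2). The 5 genes are 6.76%, against 9.04% of all genes tested called lower and 8.88% called higher. Under 1000 bases 2 of 52 were lower, against 4.18% of all genes of that length, and among longer genes 3 of 22, against 9.59%. The median log2 fold change was -0.05, against -0.01 for all genes. Of the 74 values 54 were below 0, against 7894 of 15371 for all genes tested. The rank correlation with length was 0.155 over the 74 genes. The medians by complex were -0.04 for complex I, -0.01 for II, -0.05 for III, -0.05 for IV and -0.06 for V. The summed level became 7710 and 8080 CPM in CcKO, against 8030 and 8220 in WT, so the groups overlapped.

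**Figure D3:**
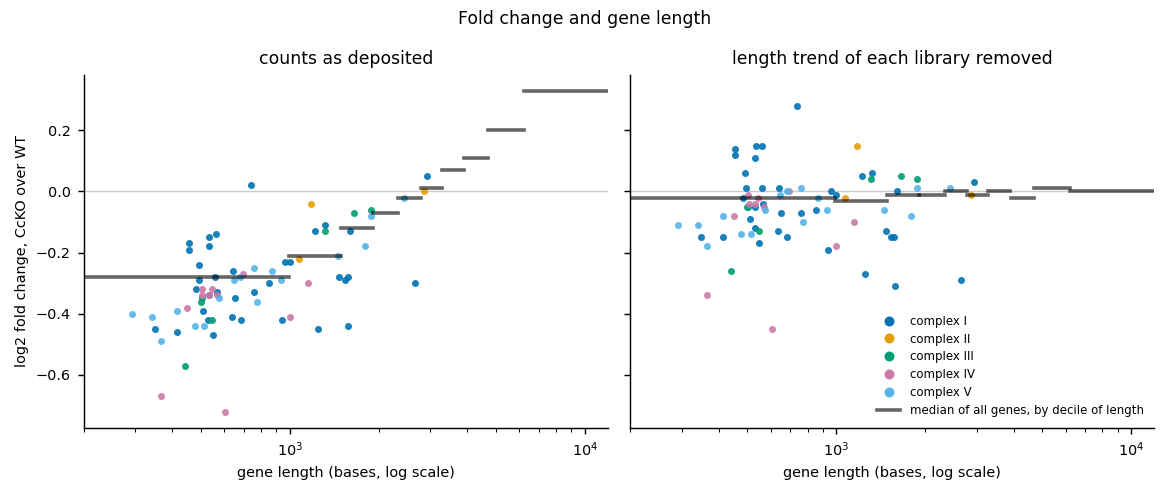
Log2 fold change of CcKO over WT against gene length (log scale) for the 74 genes, coloured by complex. Horizontal bars are the median of all genes tested in each decile of length, with the outer deciles drawn to the edge of the plot. Before removal (left) most points lie along or below the bars, which climb from -0.28 to 0.33. After removal (right) points and bars lie near 0.

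The 5 genes that stayed lower were Ndufa13, Ndufv3, Ndufa11 and Ndufs3 of complex I and Uqcr10 of complex III. With the trend removed, Ndufa13 had 69.3 and 70 CPM in CcKO, against 86.7 and 81.5 in WT (log2 fold change -0.27, SE 0.067, edgeR adjusted p = 0.0044). It shares 29.976% of its exonic bases with Tssk6 on the other strand, and whether strand was used in counting is not given in the sources used here. Uqcr10 had 44.5 and 52.1 CPM, against 56.3 and 59.2 in WT (-0.26, SE 0.081, adjusted p = 0.0247), and Ndufs3 70.8 and 67.8, against 77.4 and 80.5 (-0.19, SE 0.064, adjusted p = 0.04). In all 3 the groups did not overlap. Uqcr10 was not called with the median annotated transcript length (edgeR adjusted p = 0.051) or when a trend with GC content was also removed (0.0514). Ndufs3 was not called when the GC trend was also removed (0.0941).

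Ndufv3, an accessory subunit beside the NADH-binding site, had 46.6 and 46.8 CPM in CcKO with the trend removed, against 56.2 and 59.7 in WT (log2 fold change -0.31, SE 0.079, edgeR adjusted p = 0.00591). Ndufa11, a membrane-arm subunit, had 66 and 63.7, against 71.6 and 86.8 in WT (-0.29, SE 0.078, adjusted p = 0.00887). Both also depended on the length used. The lengths in the deposited tables are 1580 bases for Ndufv3 and 2661 for Ndufa11, while their annotated transcripts in GENCODE M21 have medians of 645 and 545 bases. With the median transcript length in place of the table length, Ndufa11 had a log2 fold change of 0.02 and neither gene was called, while Ndufa13, Ndufs3, Atp5j2 and Atp5g1 were lower. Ndufa13 was the one gene of the 5 that stayed called when WT replicate 2 was left out, and it lost its call when WT replicate 1 was left out.

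**Figure D4:**
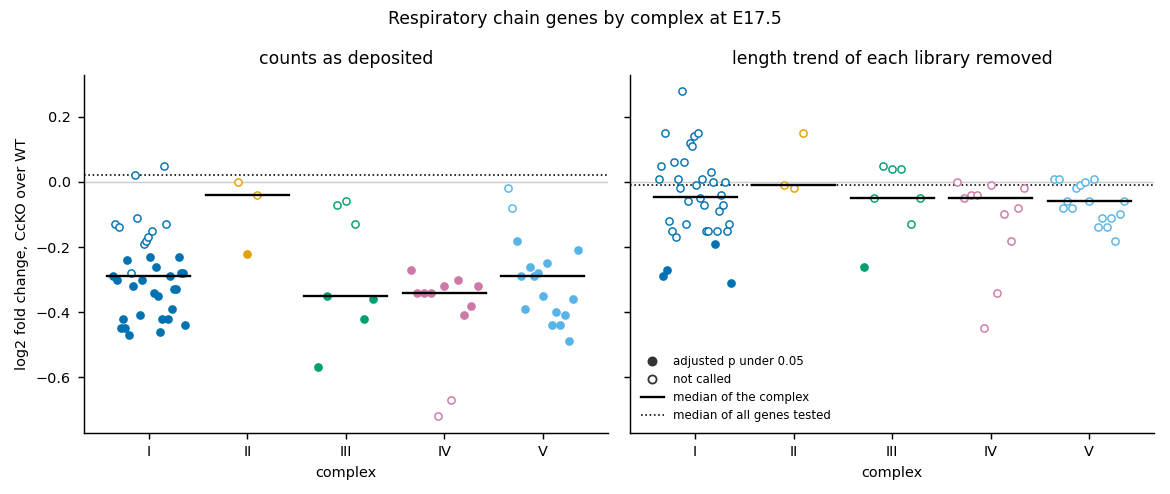
Log2 fold change of CcKO over WT for each gene by complex, with counts as deposited (left) and with the length trend of each library removed (right). Filled points have an adjusted p under 0.05, bars are the median of each complex and the dotted line the median of all genes tested. The medians of complexes I, III, IV and V move from between -0.35 and -0.29 to between -0.06 and -0.04.

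Counts for genes that work with the chain are read against the same shares of all genes tested, 12.9% lower and 17.4% higher before removal and 9.04% lower and 8.88% higher after it. Of 77 mitochondrial ribosomal protein genes tested, 40 were lower in CcKO and 0 higher, and with the trend removed 6 were lower. Of 16 import genes 8 were lower and 1 higher, which became 1 lower, Tomm6, a small part of the outer membrane translocase (-0.36). Of 16 complex I assembly factors 5 were lower and after removal none was called, and of 31 assembly factors of the other complexes 7 were lower and 1 higher, then 0 and 1. The medians after removal were -0.07, -0.01, -0.07 and -0.09, beside -0.01 for all genes. Of 6 chain subunits whose symbols the rule does not take, 3 were lower before removal, Cox4i1 (-0.39), Ndufab1 (-0.32) and Cycs (-0.22), and 1, Cycs, after it. Of 79 cytosolic ribosomal protein genes outside mitochondria, 73 were lower and then 28.

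Some other mitochondrial genes, read against the same shares of all genes tested, kept or gained a call with the trend removed. Cycs, which encodes the electron carrier cytochrome c, had 62.3 and 63.2 CPM in CcKO, against 72.1 and 73.7 in WT. Its log2 fold change was -0.22 in the counts as deposited and -0.24 with the trend removed (edgeR adjusted p = 0.0196 and 0.013), and it is 3059 bases long. Near-identical copies were not sought for Cycs or for other genes outside the rule. Among 18 regulators of mitochondrial biogenesis, 2 were lower and 3 higher before removal, and 4 lower and 1 higher after it. The 4 were Tfam and Twnk, which serve mitochondrial DNA, the nuclear receptor Esrra, and Nrf1, at -0.26, -0.29, -0.27 and -0.22. Nrf1, named after its values were seen, was -0.03 before removal. Of 18 genes of the tricarboxylic acid cycle and pyruvate dehydrogenase, 3 were higher and 3 lower, then 2 higher and 0 lower, with Pdha1, a pyruvate dehydrogenase subunit, at 0.27. Of 8 fusion and fission genes 3 were higher and 3 lower, then 2 lower, Mfn1 (-0.35) and Fis1 (-0.17). Slc25a3, the phosphate carrier, and Slc25a5, an ADP/ATP carrier, were higher after removal (0.25 and 0.22), with 0.11 and 0.03 before it.

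The subunits encoded in mitochondrial DNA went both ways. Of 13 tested, 6 were lower in CcKO and 1 higher, ND5, and with the trend removed 2 were lower and 3 higher. ND5, a proton-pumping subunit of complex I, had 726 and 834 CPM in CcKO, against 695 and 572 in WT (log2 fold change 0.30, then 0.40 with the trend removed, edgeR adjusted p = 0.00137 and 0.000141). ND4, another one, had 794 and 758 CPM, against 1010 and 915 in WT (-0.31, then -0.15). COX3 had 5.12 and 1.59 CPM, against 17.2 and 6.21, far below COX1 with 4280 and 5020 CPM in CcKO and 4890 and 4270 in WT. ND3, ND4L, COX2, COX3, ATP6 and ATP8 had under 20 CPM in every library, which does not match what is known of their abundance, and the cause was not tested.

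Marker lists of other cell types were read in the same libraries, in the counts as deposited, with the length trend of WT not removed. Of all genes tested, 17.4% were called higher in CcKO and 12.9% lower in these counts. Erythroid markers summed to 12.9 and 12.8 CPM in CcKO, against 4.83 and 3.76 in WT, with 2 of 3 tested genes higher. Radial glia markers summed to 853 and 956 CPM in CcKO, against 793 and 812 in WT, with 4 of 8 higher and 0 lower. Neuronal markers summed to 7990 and 7890 CPM in CcKO, against 8070 and 7630 in WT, with 5 of 8 higher and 2 lower, and interneuron markers to 55.2 and 65.7, against 43 and 55.2. Intermediate progenitor markers summed to 1110 and 1240 CPM, against 1090 and 1090, and markers of astrocytes and oligodendrocyte precursors to 101 and 100, against 86.4 and 99.8. Microglial markers summed to 4.04 and 7.43 CPM, against 3.37 and 4.56, endothelial and mural markers to 13.7 and 13.9, against 7.42 and 10.9, and choroid plexus markers to 0.159 and 0.144, against 0 and 0.0723. No listed marker found in the tables was at 0 in all 10 libraries. The part of these cells in the differences above was not tested.

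At E15.5 the effect of the CCN1 plasmid was compared next. Of the 74 genes, 0 were higher and 0 lower in PB-CCN1 than in PB-Ctrl, against 0.442% and 0.748% of all genes tested in each direction (edgeR quasi-likelihood F-test). At an unadjusted p under 0.05 there were 8 genes, 7 higher and 1 lower, which is 10.8%, against 11.7% of all genes tested. DESeq2 had 8 and limma 6 at that threshold. The median log2 fold change was 0.04, with medians of 0.03 for complexes I and IV, 0.09 for II, 0.05 for III and 0.07 for V. In 28 genes both PB-CCN1 libraries lay above both PB-Ctrl libraries and in 6 below, against 23.5% and 21.9% of all genes. The smallest adjusted p, 0.176, belonged to Ndufa10, with 114 and 108 CPM in PB-CCN1, against 94.2 and 100 in PB-Ctrl. Atp5g1, 1 of the genes of the c-ring of ATP synthase, with a near-identical pseudogene, had the next smallest, with 38.6 and 41.8 CPM, against 47.6 and 47.2 (log2 fold change -0.24, adjusted p = 0.184). In the lists around the chain, Pprc1 was lower, with 48.7 and 49.2 CPM in PB-CCN1, against 61.5 and 60.2 in PB-Ctrl, and 4 of 79 cytosolic ribosomal protein genes were higher.

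With the GPC4 plasmid 5 genes were higher than in PB-Ctrl and 0 lower, which is 6.76%, against 3.19% of all genes tested called higher and 3.17% called lower. The count was 14 when E15.5 was fitted alone, 13 when low counts were kept, 9 with DESeq2 and 1, Cox6b1, with limma. The median of the 74 log2 fold changes was 0.08. In 37 genes both PB-GPC4 libraries lay above both PB-Ctrl libraries and in 9 below, against 26.7% and 27% of all genes. By complex, 1 of 36 genes of complex I was higher, 2 of 11 of complex IV and 2 of 17 of complex V, and in complexes II and III none was called. The summed level was 7280 and 7110 CPM in PB-CCN1, 7410 and 7270 in PB-GPC4, and 6900 and 6910 in PB-Ctrl. Both plasmid groups were set against the same 2 PB-Ctrl libraries, so that these comparisons are not independent. Radial glia markers summed to 691 and 690 CPM in PB-GPC4, against 841 and 849 in PB-Ctrl, with 5 of 8 lower. In PB-CCN1 they summed to 739 and 734 CPM, with 2 of 8 lower than in PB-Ctrl. Neuronal markers summed to 8090 and 7950 CPM in PB-GPC4, against 7440 and 7530 in PB-Ctrl, with 3 of 8 higher. In PB-CCN1 they summed to 7510 and 7690 CPM, with 0 of 8 called. Interneuron markers summed to 10.4 and 10.9 CPM in PB-GPC4, against 17.6 and 17.3 in PB-Ctrl, with 2 of 6 lower. In PB-CCN1 they summed to 10.9 and 11.7 CPM, with 0 of 6 called. The part of these cells in the differences was not tested.

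The smallest adjusted p was that of Cox6b1, with 124 and 124 CPM with PB-CCN1, and 141 and 142 CPM with PB-GPC4, against 121 and 119 in PB-Ctrl (log2 fold change of PB-GPC4 over PB-Ctrl 0.24, SE 0.056, edgeR adjusted p = 0.00938). Cox7a2l had 131 and 126 CPM with PB-CCN1, and 146 and 132 with PB-GPC4, against 119 and 114 in PB-Ctrl (PB-GPC4 over PB-Ctrl 0.25, SE 0.065, adjusted p = 0.019). In both genes the PB-GPC4 libraries lay above both PB-CCN1 libraries and both PB-Ctrl libraries.

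Atp5a1 had 730 and 716 CPM with PB-CCN1, and 763 and 746 with PB-GPC4, against 679 and 664 in PB-Ctrl (log2 fold change 0.17, SE 0.045, edgeR adjusted p = 0.023). Atp5l had 78.7 and 82 CPM with PB-CCN1, and 81.3 and 84.3 with PB-GPC4, against 70.5 and 69.2 in PB-Ctrl (0.25, SE 0.067, adjusted p = 0.0243), with the doubt about its near-identical copies. Ndufa10, an accessory subunit of complex I, had 114 and 108 CPM with PB-CCN1, and 113 and 112 with PB-GPC4, against 94.2 and 100 in PB-Ctrl (0.21, SE 0.061, adjusted p = 0.0369). In all 5 called genes both PB-CCN1 libraries also lay above both PB-Ctrl libraries, as in 23.5% of all genes tested. The 5 were picked by a comparison with these same PB-Ctrl libraries, so this is not separate evidence. None of them was called with PB-CCN1. The rises with PB-GPC4 were 1.12 to 1.19-fold.

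With the length trend removed 4 of the 74 genes were called higher in PB-GPC4 and 0 lower. That is 5.41%, against 3.89% of all genes tested called higher and 3.02% called lower. All 4 were among the 5 above, and Ndufa10 had an edgeR adjusted p of 0.0551. The median moved from 0.08 to 0.05. The calls rested on having both libraries of each group: leaving out 1 library in turn gave 0 or 1 call. Without PB-GPC4 replicate 2 it was Cox7a2l, without PB-Ctrl replicate 1 it was Ndufs4 in place of the 5, and without PB-Ctrl replicate 2 or PB-GPC4 replicate 1 there was none.

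**Figure D5:**
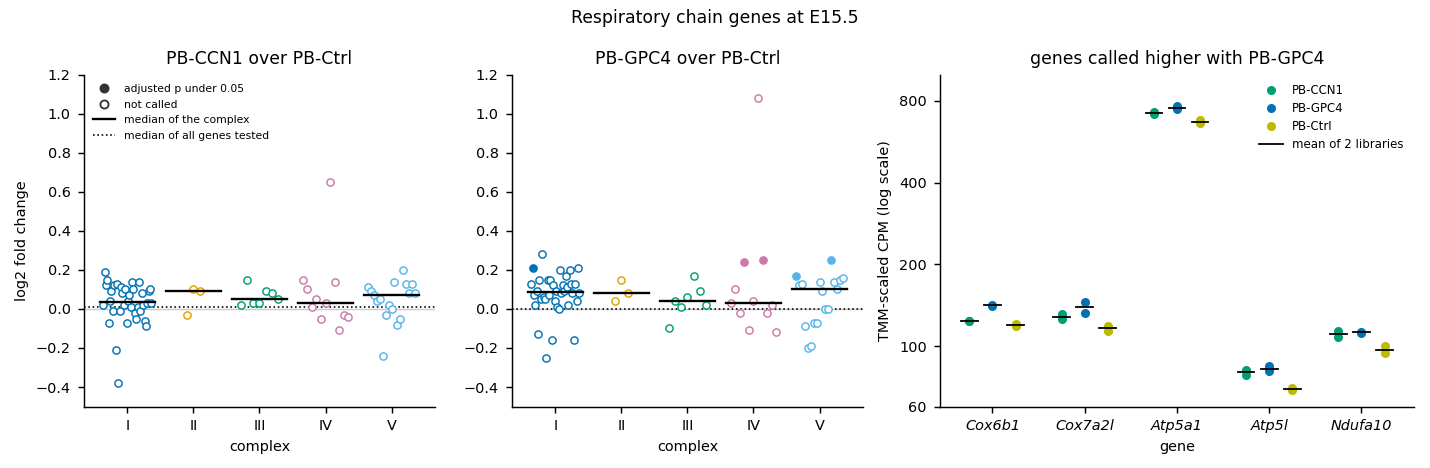
Left and middle, log2 fold change of PB-CCN1 and of PB-GPC4 over PB-Ctrl for each gene by complex, with filled points for an adjusted p under 0.05. Right, TMM-scaled CPM (log scale) of the 5 genes called higher with PB-GPC4 in each library of the 3 groups, with bars at the mean. The PB-GPC4 points of Cox6b1, 141 and 142 CPM, lie above all PB-CCN1 and PB-Ctrl points.

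Around the chain, Cycs was also higher in PB-GPC4, with 79.3 and 72.7 CPM, against 66.5 and 61.6 in PB-Ctrl (log2 fold change 0.25, edgeR adjusted p = 0.0309). So were Vdac1, an outer membrane porin, at 0.18, the complex I assembly factor Ndufaf5 at 0.37 and the import receptor Tomm22 at 0.21. Cycs is 1 of 6 chain subunits the rule does not take, and Vdac1 1 of 6 carriers and porins tested. Ndufaf5 is 1 of 16 complex I assembly factors, and Tomm22 1 of 16 import genes. No other gene of these lists was called, beside 3.19% of all genes tested called higher and 3.17% lower. With the length trend removed no import gene was called, and the other lists had 1 gene called higher each. Lower were Cox20, 1 of 31 assembly factors of complexes II to V, at -0.40, and Pprc1, a PGC-1 related coactivator, at -0.39. Pprc1 is 1 of the 18 regulators of mitochondrial biogenesis. Of the ribosomal protein genes, 1 of 77 mitochondrial ones was higher, and of 79 cytosolic ones 6 were higher and 1 lower. Cox20 had 38.7 and 38.5 CPM in PB-GPC4, against 52.9 and 49 in PB-Ctrl. Of the 13 mitochondrially encoded subunits ND1, COX3 and ATP6 were higher and none lower, with COX3 and ATP6 under 7 CPM in every E15.5 library. With the length trend removed 2 of the 13 were higher.

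Between the plasmids 0 of the 74 genes were higher and 0 lower in PB-CCN1 than in PB-GPC4, against 1.4% and 0.755% of all genes tested. At an unadjusted p under 0.05 there were 5 genes in edgeR, 1 higher and 4 lower, which is 6.76%, against 14.3% of all genes tested, and 5 in DESeq2 and 7 in limma. The median log2 fold change was -0.04. Cox6b1 had the smallest adjusted p in edgeR, 0.077, with a log2 fold change of -0.19, and DESeq2 called it lower in PB-CCN1 with an adjusted p of 0.023.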

How the data were processed

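Bulk mRNA-seq was made from sorted cortical cells with the KAPA Hyper Prep kit, per the labels' protocols. Per the submitters' processing notes, bcl2fastq, Trimmomatic, HISAT2 and featureCounts were used with mm10, with versions not given in the sources used here. The authors deposited raw counts by Entrez gene ID, and FPKM values that the authors scaled to gene length and library total. Each length implied by counts and FPKM was 1 whole number per gene. Symbols came from RefSeq for 25274 IDs and GENCODE M21 for 17, and 1887 stayed unnamed. The number of per-sample columns left unmapped was 0.

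Counts were tested with edgeR 4.0.16 (R 4.3.3, TMM, filterByExpr, 5 group means in 1 model, two-sided quasi-likelihood F-test, Benjamini-Hochberg over 15371 genes, threshold 0.05). TMM factors ran from 0.9844 to 1.014. Fold changes have standard errors (SE). The length trend was a lowess (span 0.3) per library over log2 length. Replicates of a group differed beyond counting error (chi-square per degree of freedom 3.37 to 8.76), and Pearson's r of log2 counts was 0.985 to 0.989. The fit was tested on simulated data. Genes were named by rule: all called where 10 or fewer were, otherwise the 4 smallest adjusted p per complex, the highest and lowest FPKM per complex, complex II and paralogue sets. Near-identical transcripts (95% identity over 50% of length) were sought with BLAST 2.17.0, only for the genes the rule matched. Alternatives used DESeq2 1.42.0 and limma 3.58.1 on log2(FPKM + 1). The genes and lists were chosen with earlier results of these data known.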

Additional observations from a re-analysis of the deposited data

How the results depend on the processing

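The count of 54 genes lower in CcKO was 54 with other size factors, no filter on low counts, E17.5 alone, the replicate block and DESeq2, and 57 with limma at either FPKM pseudocount. The 54 genes were the same in each of these. Leaving out 1 library gave 37 to 55, with 37 without WT replicate 2. It was 5 with the length trend removed, at a span of 0.6, and with the replicate block, and 3 with GC content removed as well or with E17.5 alone. Length choices added after seeing the data gave 4 with the median transcript length and 30 with the shortest. With the trend removed, leaving out 1 library gave 1 to 8. Among the named genes called lower, values that turned positive were Ndufa11 at 0.02 (median transcript length), Ndufa4 at 0.06, 0.08 (span 0.6), 0.07 (with GC), 0.06 (with the block) and 0.09 (median transcript length), and Sdhb at 0.01, Cox6a1 at 0.04 and Cox8a at 0.04 (with GC). None of these was called there. Over all 74 genes, 2 values were positive in the deposited counts and 20 with the trend removed. The causes were not tested.

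The 5 genes higher in PB-GPC4 became 13 with no filter, 14 with E15.5 alone (9 with the trend removed too), 9 with DESeq2, 1 with limma at either pseudocount and 6 with the block. Leaving out 1 library gave 0 to 1, also with the trend removed. Lower genes were 0, but 1 with E15.5 alone, with GC or with the median transcript length, and 3 with E15.5 alone and the trend removed. PB-CCN1 against PB-Ctrl gave 1 higher with E15.5 alone and 1 lower when the trend was removed too. PB-CCN1 against PB-GPC4 gave 1 higher with no filter, E15.5 alone (also with the trend removed) and the median transcript length, and 1 lower with no filter, E15.5 alone (also with the trend removed) and DESeq2. Replicate numbers did not pair the libraries: the correlation of replicate differences between groups ran from -0.0163 to 0.018. Ndufa8, Cox6b2 and Cox7a1, at 5.6 FPKM or less, had too few counts to show a change of this size.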
